A study of Mus musculus with 15 samples.

Results

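The genes described here are 9 members of the Notch pathway, measured in the whole thymus of mice: the receptors Notch1, Notch2 and Notch3, their nuclear partner Rbpj, and the target genes Hes1, Hey1, Dtx1, Nrarp and Ptcra. They were chosen by symbol, each from the probe sets of the array that are annotated with that symbol alone, and Rbpj, which has another such probe set, from the brighter of them. These are 9 of the 19938 genes the arrays measured by a probe set of a single symbol. All mice were 5-week-old females, and the thymus was dissected 2 h after 0.5 µg of a peptide had been injected into a vein. The arrays fall into 4 groups: NOD.LCMV mice given gp33 (n = 3), NOD.LCMV mice given the control peptide (n = 3), NOD.Ln82-LCMV mice given gp33 (n = 5) and NOD.Ln82-LCMV mice that received the control peptide (n = 4). The control peptide binds the class I molecule Db, as gp33 does. Both strains carry LCMV in their name, which in the literature on these mice stands for a transgenic T-cell receptor that recognises gp33, so mice of the control groups carry it too. The labels give neither the promoter of that transgene nor the extent of the Ln82 segment, and they name no batch, so strain and any batch in step with it cannot be told apart.

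Notch receptors are membrane proteins that are cut when a ligand on a neighbouring cell pulls on them. The freed intracellular part enters the nucleus, where it joins RBPJ and a Mastermind coactivator on DNA and turns on target genes. In the thymus the ligand DLL4 on epithelial cells, acting through NOTCH1, commits incoming progenitors to the T lineage and carries them through the early CD4-CD8- stages, after which Notch target genes decline as the cells become CD4+CD8+. HES1 and HEY1 are transcriptional repressors, DTX1 is a ubiquitin ligase, NRARP is a feedback inhibitor of Notch transcription complexes, and PTCRA is the pre-T-cell receptor alpha chain, which pairs with a rearranged beta chain.

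After gp33, NOD.LCMV thymuses had less Hey1 and Dtx1 and more Hes1 than those given the control peptide, while the receptors, Rbpj, Nrarp and Ptcra did not pass the test. That is 3 of 9 genes, where 19.8% of all genes passed. None of the 9 passed in NOD.Ln82-LCMV, nor did more than 0.00502% of all genes. Between the strains after gp33, 7 of the 9 differed, beside 27% of all genes: Notch1, Notch2 and Rbpj were higher in NOD.LCMV, and Hey1, Dtx1, Nrarp and Ptcra were lower. Of these 7, Notch2 also differed with the control peptide. Only Hey1 passed in the test of the difference between the strains' responses to gp33. A gene was called at a limma adjusted p under 0.05, with the Benjamini-Hochberg adjustment over all 19938 genes. The shares of all genes given here and below count dim genes too, and none of the 9 is among the dimmest. With the dimmest genes left out, 13291 were kept. Of these, 4034 were called after gp33 in NOD.LCMV and 5327 between the strains after gp33, which are larger shares than 19.8% and 27%.

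The arrays did not differ much in scale, with median log2 signals between 7.59 and 7.67 and correlations within a group of 0.990 or more. Thymocyte markers were bright: the mean log2 signal of the 11 double-positive thymocyte markers lay between 9.43 for Cd1d1 and 12.52 for Cd24a. All 7 receptor-response genes rose after gp33 in NOD.LCMV and 1 of 7, Cd69, in NOD.Ln82-LCMV, where 6 of 7 had an unadjusted p under 0.05 and the median difference was 0.43. Their mean log2 signal in NOD.Ln82-LCMV lay between 10.003 and 10.47 after gp33 and between 9.60 and 9.83 after the control peptide, with no overlap. Array signals have no zero, so no marker can be given as absent, and precision is limited by how many arrays there are. The RNA came from the whole organ, so fewer cells of a type and less RNA per cell cannot be told apart in any result below.

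RBPJ binds DNA through a core of the letters TGGGAA, usually within the longer GTGGGAA. Both were looked for, on either strand, in the 250 bases before the start of each gene as RefSeq places it in the build GRCm38.p6. Windows were at hand for 7 of the 9 genes, 8 windows in all, and Hes1 and Hey1 are not among them. The windows of the target genes Dtx1, Nrarp and Ptcra are shown because these 3 targets moved between groups as described below. Matches to the core are in capitals and each sequence reads 5′ to 3′ on the gene's strand. They lie at chr5:120711670-120711919 on the minus strand for Dtx1, at chr2:25180508-25180757 on the plus strand for Nrarp, and at chr17:46763713-46763962 on the minus strand for Ptcra.
Dtx1: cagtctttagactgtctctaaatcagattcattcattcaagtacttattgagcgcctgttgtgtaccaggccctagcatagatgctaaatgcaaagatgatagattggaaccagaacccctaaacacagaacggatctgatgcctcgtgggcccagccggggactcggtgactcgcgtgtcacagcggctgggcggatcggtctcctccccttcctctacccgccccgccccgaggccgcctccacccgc
Nrarp: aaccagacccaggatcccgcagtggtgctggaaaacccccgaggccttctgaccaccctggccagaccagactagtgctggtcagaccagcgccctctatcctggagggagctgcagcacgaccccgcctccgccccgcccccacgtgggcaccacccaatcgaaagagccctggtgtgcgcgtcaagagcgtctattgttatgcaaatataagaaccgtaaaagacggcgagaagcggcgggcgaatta
Ptcra: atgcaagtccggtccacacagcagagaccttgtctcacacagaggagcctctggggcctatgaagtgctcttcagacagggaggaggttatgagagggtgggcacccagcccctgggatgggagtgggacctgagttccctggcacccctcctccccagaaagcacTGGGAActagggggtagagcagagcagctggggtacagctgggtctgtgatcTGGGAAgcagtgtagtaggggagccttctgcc
The Ptcra window held the core at 2 places, beginning 84 and 32 bases before the start. Of the 2 Rbpj windows, which overlap, the one at chr5:53590096-53590345 held 2 matches and the one at chr5:53590236-53590485 held 1. Dtx1, Nrarp and the 3 receptor genes had none, and no window held GTGGGAA. Among 32851 mouse windows of the same length, 21.59% held the core at least once and 2.77% at 2 or more places, and 5.42% held GTGGGAA. A match is a description of these letters, and the lack of one speaks only of this window.

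**Figure D1:**
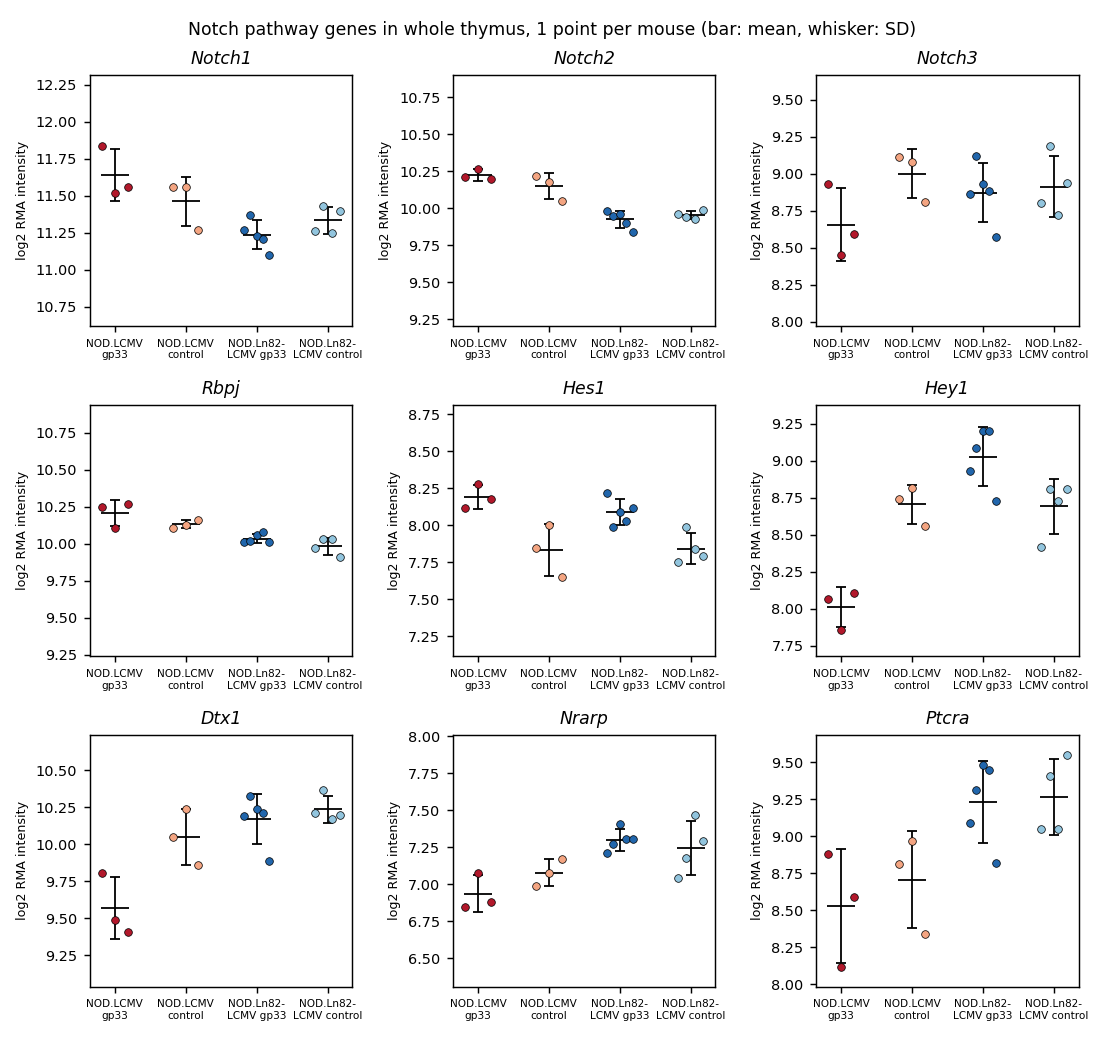
Log2 signal of the 9 Notch pathway genes (vertical axes, each with its own range) in the 4 groups (horizontal axis: NOD.LCMV with gp33 and with the control peptide, then NOD.Ln82-LCMV with gp33 and with the control peptide). Each point is 1 mouse and the bar and whisker are the group mean and SD; Hey1 is lowest in NOD.LCMV given gp33 (7.86 to 8.11) and highest in NOD.Ln82-LCMV given gp33 (8.73 to 9.20).

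Notch1, the receptor that drives T-lineage commitment (chromosome 2, probe set 10481056), read 11.84, 11.52 and 11.56 in the 3 NOD.LCMV mice given gp33 and 11.56, 11.56 and 11.27 in the 3 given the control peptide. The groups overlap, with 1 gp33 mouse above the rest, and the difference of 0.18 ± 0.10 log2 (standard error, as for every difference here) was not called (limma adjusted p = 0.253). In NOD.Ln82-LCMV it read 11.27, 11.37, 11.23, 11.21 and 11.10 after gp33, and 11.26, 11.43, 11.25 and 11.40 after the control peptide. That difference of -0.10 ± 0.08 was not called either (limma adjusted p = 0.967). After gp33 all 3 NOD.LCMV mice were above all 5 NOD.Ln82-LCMV mice, and the strain difference of 0.40 ± 0.09 passed the test (1.32-fold, 95% interval 1.17 to 1.5, limma adjusted p = 0.00219). With the control peptide the strains overlapped and differed by 0.13 ± 0.09 (limma adjusted p = 0.466).

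Notch2 is a receptor best known in the spleen, where marginal zone B cells need it (chromosome 3, probe set 10494595). Its signal was 10.21, 10.27 and 10.20 in NOD.LCMV given gp33, against 10.22, 10.18 and 10.05 with the control peptide. In NOD.Ln82-LCMV the 5 mice given gp33 lay between 9.84 and 9.98, and the 4 given the control peptide between 9.93 and 9.99. The split here is by strain: every NOD.LCMV mouse was above every NOD.Ln82-LCMV mouse. The strain difference passed with gp33, at 0.30 ± 0.05 (1.23-fold, interval 1.15 to 1.32, limma adjusted p = 0.000126), and with the control peptide, at 0.20 ± 0.05 (1.14-fold, interval 1.07 to 1.23, limma adjusted p = 0.0157). Peptide made no called difference to it in NOD.LCMV (0.08 ± 0.05) or in NOD.Ln82-LCMV (-0.03 ± 0.04). For the control peptide groups, dropping either control replicate 1 or replicate 2 of NOD.LCMV, or control replicate 3 of NOD.Ln82-LCMV, ended the call, with adjusted p from 0.0101 to 0.0806 over the arrays left out. It also ended with arrays centred on their medians (0.13, adjusted p = 0.114) and with only the groups compared (adjusted p = 0.0534). A term for replicate numbers shared in NOD.Ln82-LCMV ended it too (0.18, limma adjusted p = 0.217).

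Notch3, a receptor of early thymocytes and of the muscle cells around vessels (chromosome 17, probe set 10449775), read 8.93, 8.45 and 8.59 after gp33 in NOD.LCMV and 9.11, 9.08 and 8.81 after the control peptide. The highest gp33 mouse lies inside the range of the control mice, and the difference of -0.34 ± 0.15 was not called (limma adjusted p = 0.128). It passed only when NOD.LCMV gp33 replicate 1, the highest of its group, was left out (-0.48, adjusted p = 0.0396). In NOD.Ln82-LCMV the gp33 mice lay between 8.57 and 9.12 and the control mice between 8.72 and 9.19, a difference of -0.04 ± 0.12.

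Rbpj, which encodes the DNA-binding partner of all Notch receptors (chromosome 5, probe set 10521913), read 10.25, 10.11 and 10.27 after gp33 in NOD.LCMV and 10.11, 10.13 and 10.16 after the control peptide. The corresponding values in NOD.Ln82-LCMV were 10.01, 10.02, 10.06, 10.08 and 10.01 after gp33 and 9.97, 10.03, 10.03 and 9.91 after the control peptide. As for Notch2, the NOD.LCMV mice lay above the NOD.Ln82-LCMV mice under either peptide, without overlap. The strain difference was 0.17 ± 0.04 with gp33 (1.13-fold, interval 1.06 to 1.20, limma adjusted p = 0.00748) and 0.15 ± 0.05 with the control peptide, which missed the threshold (limma adjusted p = 0.0537). The gp33 call ended with a term for replicate numbers shared in NOD.Ln82-LCMV (0.19, limma adjusted p = 0.0709). The other Rbpj probe set, 10521911, is dimmer, with a mean of 6.27, and was called in no comparison; its strain difference with gp33 was 0.15 ± 0.08 (adjusted p = 0.232).

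Hes1, the repressor that acts downstream of Notch in early thymocytes (chromosome 16, probe set 10434925), was the member that rose. It read 8.12, 8.28 and 8.18 in NOD.LCMV given gp33, and 7.85, 8.0 and 7.65 in NOD.LCMV given the control peptide, so every gp33 mouse was above every control mouse. The difference was 0.36 ± 0.09 (1.28-fold, interval 1.13 to 1.46, limma adjusted p = 0.00673). In NOD.Ln82-LCMV it read 8.22, 7.99, 8.09, 8.03 and 8.12 after gp33 and 7.75, 7.99, 7.84 and 7.79 after the control peptide. These groups touch at 7.99 and are otherwise apart, with a difference of 0.25 ± 0.07 (interval 0.10 to 0.40) that was not called over all genes (limma adjusted p = 0.623), though an exact permutation test of this gene alone gave 0.0159. The difference between the strains' responses, 0.11 ± 0.11 (interval -0.12 to 0.35), was not called (limma adjusted p = 0.68), so no strain difference in the Hes1 response was shown.

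Hey1, a repressor of the same family that is a Notch target in vessels and epithelia (chromosome 3, probe set 10497203), moved the most. In NOD.LCMV it read 8.07, 7.86 and 8.11 after gp33 and 8.74, 8.82 and 8.56 after the control peptide. The groups do not overlap, and Hey1 fell by 0.69 ± 0.13 log2, to 0.618 of the control level (interval 0.513 to 0.746, limma adjusted p = 0.00105). An exact permutation test of 3 against 3 mice gave 0.1, the smallest value that design allows. In NOD.Ln82-LCMV it read 8.93, 9.09, 9.20, 9.20 and 8.73 after gp33 and 8.42, 8.81, 8.73 and 8.81 after the control peptide. Most gp33 mice there lay above the control mice, but gp33 replicate 5 lay among them, and the difference of 0.34 ± 0.10 was not called over all genes (limma adjusted p = 0.651, exact permutation p of this gene alone 0.0556).

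The responses of Hey1 in the strains differed by -1.03 ± 0.16 (interval -1.38 to -0.68, limma adjusted p = 0.000819). That call held without any 1 array, with values between -1.11 and -0.94. The order of the group means was NOD.Ln82-LCMV with gp33 (9.03 ± 0.20, SD, n = 5), NOD.LCMV with the control peptide (8.71 ± 0.13, SD, n = 3), NOD.Ln82-LCMV with the control peptide (8.69 ± 0.19, SD, n = 4) and NOD.LCMV with gp33 (8.01 ± 0.13, SD, n = 3). With the control peptide the strains differed by 0.01 ± 0.12 (interval -0.24 to 0.27), which was not called. After gp33 the strains were apart by -1.02 ± 0.11, NOD.LCMV at 0.494 of NOD.Ln82-LCMV (interval 0.418 to 0.585, limma adjusted p = 7.52e-06).

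Hey1 moved with markers of some other cell types. Over the 15 arrays its correlation with the mean of 12 thymic epithelial markers was 0.796, and 0.933 after each group's mean was taken off, where the points share the RNA of 1 thymus each. After group means it also went with markers of double-negative thymocytes (0.793), of dendritic cells and macrophages (0.785), of B cells (0.758) and of double-positive thymocytes (0.552), and less with endothelial markers (0.176). With mature single-positive markers it was -0.145. Without taking off group means, Hey1 correlated at 0.893 with dendritic cell and macrophage markers and at 0.807 with B cell markers, both above the epithelial 0.796. In the same way, the correlation with the double-negative markers was -0.445. Their group mean was 8.44 with the control peptide and 8.81 with gp33 in NOD.LCMV, where Hey1 fell. Of these 8 markers 3 rose there (Il2ra, Kit and Cd44, which T-cell receptor signals also raise) and 5 were not called. Their median difference was -0.07. After group means the epithelial mean went likewise with Ptcra (0.860), Notch3 (0.789) and Notch1 (0.682). The mean log2 signal of the 12 epithelial markers lay between 9.80 and 9.99 in NOD.LCMV given gp33, and between 9.89 and 9.98 with the control peptide. It lay between 9.92 and 10.27 in NOD.Ln82-LCMV given gp33, and between 9.80 and 10.11 with the control peptide. Of the 12 markers, 2 fell after gp33 in NOD.LCMV: Psmb11, a proteasome subunit of cortical epithelium, by 0.53 ± 0.14, and Foxn1, the regulator of epithelial identity, by 0.33 ± 0.10, a call that ended when either of control replicates 1 and 2, or either of gp33 replicates 2 and 3, of NOD.LCMV was dropped. Cldn4 rose by 0.37 ± 0.10, which was not called after dropping control replicate 1 or 3, or gp33 replicate 1, of NOD.LCMV, and the other 9 were not called. In the comparisons where Hey1 differed between the strains, 6 of the 12 epithelial markers were lower in NOD.LCMV with gp33 and none was higher (median -0.24). That count was 4 to 7 with 1 array left out, and 4 without gp33 replicate 2 of NOD.LCMV. The difference between responses was called for 3 of the 12, all lower (median -0.23), and for 1 to 5 with 1 array left out. It was 1 on dropping any of 4 NOD.LCMV arrays (replicates 1 and 2 of the control peptide, and 2 and 3 of gp33), and 5 without gp33 replicate 5 of NOD.Ln82-LCMV. The endothelial list ran from 7.90 to 7.93 in NOD.LCMV given gp33 and from 8.04 to 8.29 with the control peptide, and 2 of its 12 genes, Pecam1 (-0.61 ± 0.06) and Eng (-0.91 ± 0.12), fell. Of 10 markers of dendritic cells and macrophages 4 fell in the NOD.LCMV response. Between the strains with gp33 7 of these 10 were lower, and for the difference between responses 3 were lower. Of 7 B cell markers none was called in either response, and 5 were lower between the strains with gp33. Of all genes 12.5% fell in the NOD.LCMV response. Between strains with gp33 16.8% were lower in NOD.LCMV, and for the difference between responses 4.26% were lower. What part these cell types have in the Hey1 result was not tested.

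**Figure D2:**
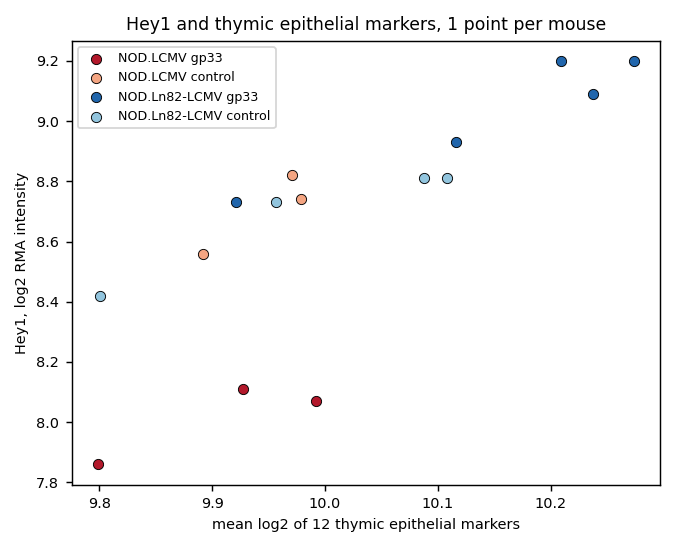
Hey1 log2 signal (vertical axis) against the mean log2 signal of 12 thymic epithelial markers (horizontal axis), 1 point per mouse, coloured by group. The 3 NOD.LCMV mice given gp33 lie below all others in Hey1 (7.86 to 8.11) at epithelial means of 9.80 to 9.99, which overlap those of the other groups.

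Dtx1 (chromosome 5, probe set 10533182), which was the other target to fall, read 9.81, 9.49 and 9.41 in NOD.LCMV given gp33 and 10.05, 10.24 and 9.86 with the control peptide. The groups are apart by a narrow gap between 9.81 and 9.86. Dtx1 fell by 0.48 ± 0.12 log2, to 0.717 of the control level (interval 0.601 to 0.856, limma adjusted p = 0.00939). Dropping control replicate 2 of NOD.LCMV ended this call (-0.385, adjusted p = 0.0561, in a range of 0.00266 to 0.0561 over the arrays left out). In NOD.Ln82-LCMV the values were 10.19, 10.33, 10.24, 10.21 and 9.89 after gp33 and 10.21, 10.37, 10.17 and 10.20 after the control peptide, a difference of -0.07 ± 0.10. The responses differed by -0.41 ± 0.15 (interval -0.74 to -0.08), which was not called (limma adjusted p = 0.124). Without NOD.Ln82-LCMV gp33 replicate 5, the lowest Dtx1 mouse of its group, it was called (-0.485, adjusted p = 0.0363), and likewise without NOD.LCMV gp33 replicate 1 (adjusted p = 0.0382). After gp33 Dtx1 was lower in NOD.LCMV by -0.60 ± 0.11 (0.659 of NOD.Ln82-LCMV, interval 0.562 to 0.772, limma adjusted p = 0.000547), with no overlap.

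Nrarp (chromosome 2, probe set 10469936) passed in 1 comparison, between the strains with gp33. It read 6.85, 7.08 and 6.88 after gp33 in NOD.LCMV and 6.99, 7.08 and 7.17 after the control peptide, a difference of -0.14 ± 0.09 that was not called (limma adjusted p = 0.36). In NOD.Ln82-LCMV it read 7.21, 7.27, 7.41, 7.31 and 7.31 after gp33 and 7.04, 7.18, 7.47 and 7.29 after the control peptide, a difference of 0.06 ± 0.08. With gp33 all 3 NOD.LCMV mice were below all 5 NOD.Ln82-LCMV mice, by -0.37 ± 0.08 (0.776 of NOD.Ln82-LCMV, interval 0.687 to 0.877, limma adjusted p = 0.00352). A term for replicate numbers shared in NOD.Ln82-LCMV reduced this to -0.22 and ended the call (limma adjusted p = 0.123). With the control peptide the strains overlapped, at -0.17 ± 0.09 (limma adjusted p = 0.287).

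Ptcra (chromosome 17, probe set 10451465) varied most between mice of a group. It read 8.88, 8.12 and 8.59 in NOD.LCMV given gp33, against 8.81, 8.97 and 8.34 with the control peptide, and the difference of -0.18 ± 0.21 was within that spread (limma adjusted p = 0.701). In NOD.Ln82-LCMV it read 9.09, 9.31, 9.48, 9.45 and 8.82 after gp33, and 9.05, 9.41, 9.05 and 9.55 after the control peptide, a difference of -0.04 ± 0.18. Between strains Ptcra was lower in NOD.LCMV with gp33 by -0.70 ± 0.19 (0.616 of NOD.Ln82-LCMV, interval 0.463 to 0.818, limma adjusted p = 0.0124), although 1 NOD.LCMV mouse at 8.88 was above the lowest NOD.Ln82-LCMV mouse. Dropping gp33 replicate 2 of NOD.LCMV, the lowest mouse, ended this call (-0.495, adjusted p = 0.0974, in a range of 0.00438 to 0.0974 over the arrays left out). A term for replicate numbers shared in NOD.Ln82-LCMV ended it too (-0.574, limma adjusted p = 0.134). The strain difference with the control peptide, -0.56 ± 0.20, had no overlap and was not called (limma adjusted p = 0.0981, exact permutation p of this gene alone 0.0286, the smallest value that 3 against 4 mice allow). The 4 other genes of the pre-T-cell receptor that were measured showed no limma call in any comparison, and with gp33 in NOD.LCMV 1 of the 4 had an unadjusted p under 0.05, as did 29% of all genes.

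Markers of thymocyte stages and of myeloid cells moved after gp33 in NOD.LCMV, where Dtx1 fell and neither Ptcra nor any B cell marker was called. Between the strains after gp33, B cell markers differed as well. Of the 11 double-positive thymocyte markers, 6 fell and 1 rose after gp33 in NOD.LCMV, and 3 fell when control replicate 1, control replicate 2 or gp33 replicate 2 of NOD.LCMV was dropped. Their mean lay between 11.001 and 11.61 with gp33, and between 11.56 and 11.75 with the control peptide. Of the 7 mature single-positive markers, 4 fell and 1 rose. Of the 8 early double-negative markers, 3 rose (Il2ra, Kit and Cd44, which T-cell receptor signals also raise) and none fell. Of all genes 7.29% rose and 12.5% fell after gp33 in NOD.LCMV. Between the strains after gp33, where Dtx1 and Ptcra were lower in NOD.LCMV, 5 of 11 double-positive markers, 6 of 12 epithelial markers, 5 of 7 B cell markers and 7 of 10 markers of dendritic cells and macrophages were lower too. So were 5 of 12 endothelial markers and 3 of 13 markers of mural cells and fibroblasts. Of 7 mature single-positive markers 3 were lower and 1 higher, and of 8 double-negative markers 3 were lower and 3 higher. No adipocyte marker was called. Of all genes 16.8% were lower there. The double-positive count was 2 without gp33 replicate 2 of NOD.LCMV. After group means Ptcra correlated with the double-positive mean at 0.816. The B cell mean lay between 7.41 and 7.92 in NOD.LCMV given gp33 and between 8.23 and 8.77 in NOD.Ln82-LCMV given gp33. With the control peptide it lay between 7.37 and 8.21 in NOD.LCMV and between 7.66 and 8.60 in NOD.Ln82-LCMV. The median strain difference of the B cell markers was -0.61 with the control peptide and -0.81 with gp33. The part of these cells in the Dtx1 and Ptcra values was not tested.

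**Figure D3:**
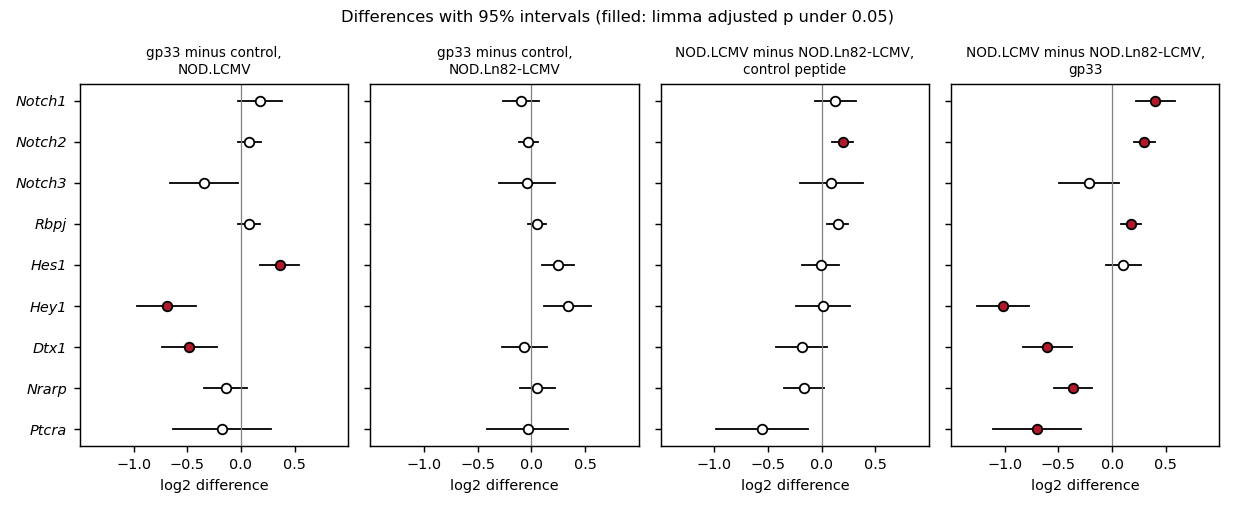
Log2 differences of the 9 genes with 95% intervals (horizontal axes) in 4 comparisons: gp33 minus control peptide in NOD.LCMV and in NOD.Ln82-LCMV, and NOD.LCMV minus NOD.Ln82-LCMV with the control peptide and, on the right, with gp33. Filled points passed the limma test at an adjusted p under 0.05: 3 genes in the NOD.LCMV response, none in the NOD.Ln82-LCMV response, 1 between strains with the control peptide and 7 with gp33.

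Counted over the 9 genes, 1 rose (Hes1) and 2 fell (Hey1 and Dtx1) after gp33 in NOD.LCMV, where 19.8% of all genes were called, 7.29% higher and 12.5% lower. Their median difference was -0.14, and that of all genes -0.03. Over all called genes in this comparison 36.9% were higher, and 47.2% when arrays were centred on their medians. In NOD.Ln82-LCMV none of the 9 was called in limma, 2 (Hes1 and Hey1) had an unadjusted p under 0.05, and 0.00502% of all genes, a single gene, were called. The share of all genes with an unadjusted p under 0.05 there was 5.97%. The difference between responses was called for 1 of the 9, Hey1, which was lower, against 8.73% of all genes (4.46% higher, 4.26% lower). Of the genes called for it, 51.1% were higher, and 65.5% with arrays centred on their medians.

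Between strains with the control peptide 1 of the 9 (Notch2) was called, beside 10.3% of all genes (4.77% higher, 5.54% lower). With gp33, 3 were higher in NOD.LCMV and 4 lower, against 27% of all genes (10.2% higher, 16.8% lower). The median over the 9 was 0.01 with the control peptide and -0.22 with gp33, where all genes had 0.01 and -0.02. Of all genes called between strains with gp33 37.7% were higher in NOD.LCMV, 47.8% after another quantile normalization and 27.7% with arrays centred on their medians. With the control peptide 46.3% were higher, and 15.3% with arrays centred on their medians. The strain comparison with gp33 and the NOD.LCMV response use the same 3 NOD.LCMV mice given gp33, so they are not independent of each other.

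**Figure D4:**
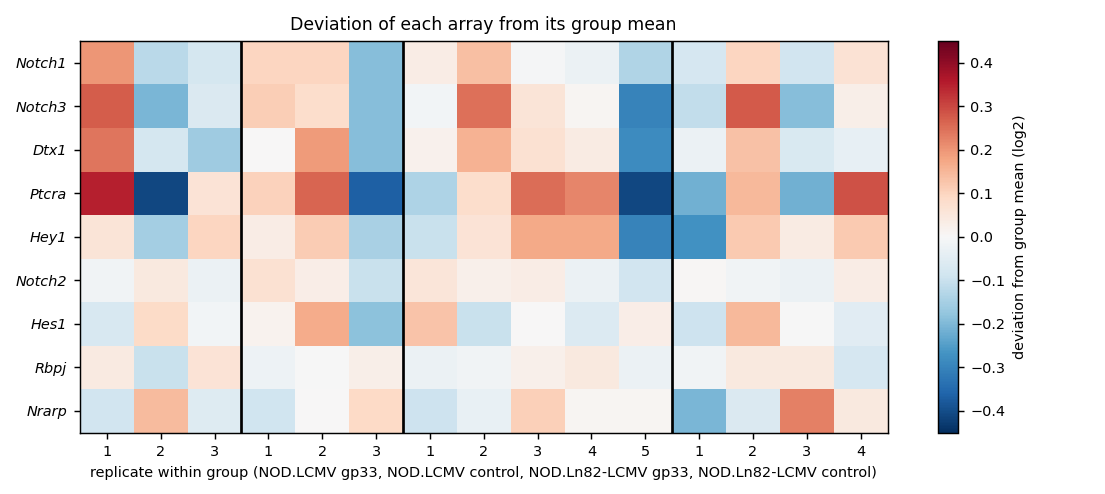
Deviation of each array (columns, by group) from its group's mean log2 signal for the 9 genes (rows), as colour in log2 units. NOD.Ln82-LCMV control replicate 1 is below its group mean for 8 of 9 genes, and NOD.LCMV control replicate 3 and NOD.Ln82-LCMV gp33 replicate 5 for 7 of 9.

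Mice of a group also differed from each other in step across several of the genes. After group means were taken off, Notch1 and Notch3 correlated at 0.922 over the 15 arrays, Notch3 and Dtx1 at 0.877, Notch1 and Dtx1 at 0.871, and Hey1 and Ptcra at 0.856. Of the 36 pairs 12 reached 0.5 and 9 were negative. Nrarp stood aside, with 7 of the 9 negative pairs, and Nrarp, Hes1 and Rbpj each reached 0.5 with no other member. The plot of deviations shows the arrays behind this: NOD.LCMV control replicate 3 was below its group mean for 7 of the 9 genes and NOD.Ln82-LCMV gp33 replicate 5 for 7, while NOD.LCMV control replicate 2 was below for 1. Points of this kind share an RNA extract and an array, and no test was made of them.

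By likeness over all 15 arrays, the genes closest to Hey1 were Vangl1 (r = 0.976, and 0.903 after group means), Stard5 (0.968 and 0.931) and St6galnac2 (0.967 and 0.879). Those closest to Dtx1 were Kdelr1 (0.961 and 0.868), Tcta and Nsdhl. For Ptcra they were Dnajc6 (0.964 and 0.952), Ccdc141 and H2-T10, and for Hes1 Myo1e (0.905 and 0.764), Slc22a15 and Mapre2. Closest to Notch1 were Stat2, Plagl1 and Bcl2l1, to Notch2 Rps6kc1, Cabin1 and Pepd, to Rbpj Hnrnpd, Dcaf13 and Ubp1, and to Nrarp Dcxr, Wdr34 and Gas1. These are descriptions over arrays in 4 groups, with no test.

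Of 67 other genes of the pathway on 6 lists, 62 were measured by a probe set of a single symbol. After gp33 in NOD.LCMV 8 of the 62 rose, 18 fell and 36 were not called, which is 41.9% called beside the 19.8% of all genes. With the dimmest genes left out, 4034 of the 13291 kept were called, so the gap is smaller beside brighter genes. Leaving out any 1 array gave 6 to 8 of the 62 higher and 14 to 21 lower. In NOD.Ln82-LCMV limma called none, and 15 of the 62 had an unadjusted p under 0.05. The median of the 62 was -0.06 in NOD.LCMV and 0.00 in NOD.Ln82-LCMV, beside -0.03 and 0.00 over all genes.

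Of the 5 ligands, which sit on the signal-sending cell, 2 rose, 2 fell and Dll3 was not called. Dll4, the ligand of thymic epithelium, lay between 7.73 and 8.10 in NOD.LCMV given gp33 and between 8.28 and 8.49 with the control peptide. It fell by 0.51 ± 0.09 (limma adjusted p = 0.000905), and in NOD.Ln82-LCMV its difference was 0.09 ± 0.08. The difference between these responses, -0.60 ± 0.12, was called (limma adjusted p = 0.00432). Jag2 fell by 0.33 ± 0.07 in NOD.LCMV, against a difference of 0.15 ± 0.06 in NOD.Ln82-LCMV that was not called. Its responses differed by -0.48 ± 0.09 (limma adjusted p = 0.0025). Dll1 rose by 0.41 ± 0.08 in NOD.LCMV (7.48 to 7.88 with gp33, 7.20 to 7.36 with the control peptide). Jag1 rose by 0.31 ± 0.10, which was not called after dropping control replicate 3, gp33 replicate 1 or gp33 replicate 3 of NOD.LCMV.

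Among 18 genes of receptor maturation and cleavage, 2 rose and 4 fell, and the lower count moved between 2, after dropping control replicate 2 or gp33 replicate 2 of NOD.LCMV, and 7, after dropping NOD.Ln82-LCMV gp33 replicate 5. Furin, the convertase that makes the first cut in the receptor as it matures, lay between 10.58 and 10.84 in NOD.LCMV given gp33 and between 9.35 and 9.48 with the control peptide. It rose by 1.24 ± 0.06 (limma adjusted p = 1.76e-09), and by 1.13 ± 0.08 more than in NOD.Ln82-LCMV (limma adjusted p = 2.76e-07). Poglut1, which adds glucose to the receptor, rose by 0.25 ± 0.06. Ncstn, a subunit of the gamma-secretase that makes the last cut, fell by 0.27 ± 0.05. The other 3 that fell were Aph1b (-0.36 ± 0.10), the protease gene Adam10 (-0.21 ± 0.06) and the Fringe gene Mfng (-0.20 ± 0.06), and each lost its call when any 1 of 2 or 3 NOD.LCMV arrays was dropped.

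Of 8 nuclear coactivators, the Mastermind gene Maml2 rose by 0.35 ± 0.09, a call that ended when gp33 replicate 2 of NOD.LCMV was dropped. The acetyltransferase genes Crebbp (-0.26 ± 0.05), Ep300 (-0.25 ± 0.05) and Kat2b (-0.39 ± 0.09) fell. Of 9 corepressors 3 fell, namely Cir1 (-0.38 ± 0.07), the demethylase gene Kdm5a (-0.28 ± 0.06) and Cbfa2t3 (-0.52 ± 0.15), the last with a call lost without any 1 of 4 NOD.LCMV arrays. Of 10 negative regulators and Deltex genes 3 fell: Dtx3 by 0.41 ± 0.05, Numb, an endocytic adaptor that restrains Notch, by 0.24 ± 0.05, and Dtx2 by 0.23 ± 0.06. The Dtx2 call ended when control replicate 1 or gp33 replicate 3 of NOD.LCMV was dropped. For Dtx3 the responses differed by -0.43 ± 0.07 (limma adjusted p = 0.000978).

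The list of 12 other Notch targets, which holds Notch4, split evenly. Il2ra, the interleukin 2 receptor alpha chain, rose by 1.67 ± 0.16 and Myc, the growth regulator, by 1.40 ± 0.07, and both are also raised by T-cell receptor signals. Bcl11b, a factor of T-lineage identity, fell by 0.71 ± 0.10, and Notch4, an endothelial receptor, fell by 0.26 ± 0.07. Hey2, the closest relative of Hey1 here, fell by 0.24 ± 0.08, a call that each of 5 NOD.LCMV arrays decided. Its responses differed by -0.41 ± 0.10 (limma adjusted p = 0.0164), in the direction of Hey1, with a call that ended when control replicate 1 of NOD.LCMV was dropped. Hes5, a relative of Hes1, showed 0.04 ± 0.09 and was not called.

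**Figure D5:**
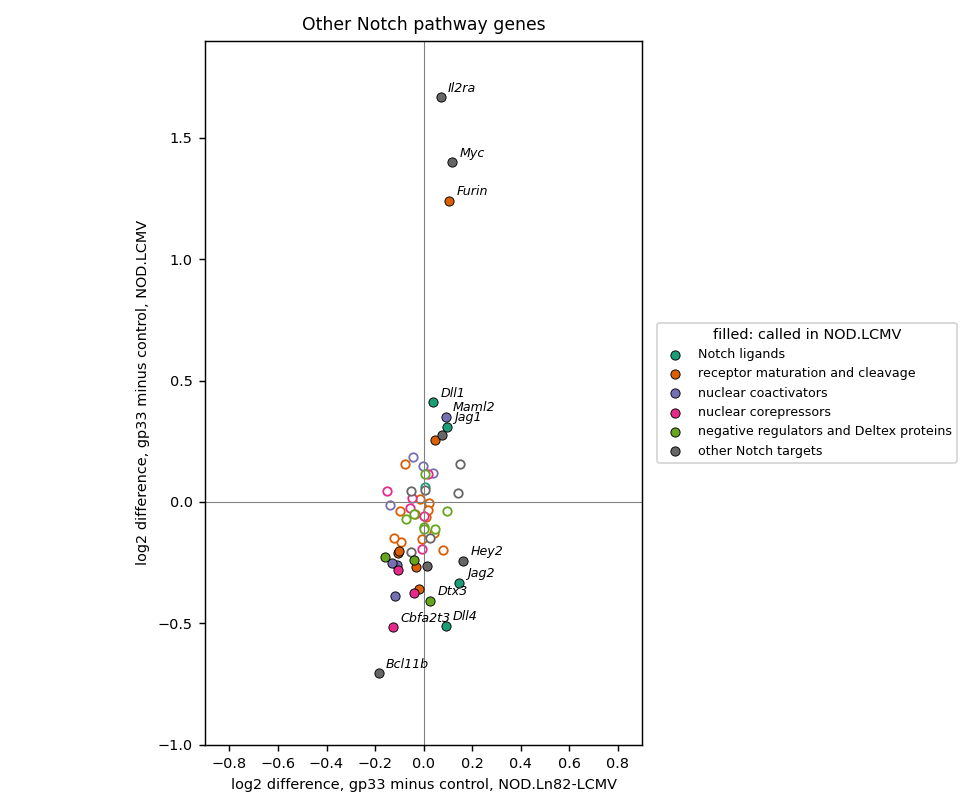
Log2 difference, gp33 minus control peptide, of 62 other Notch pathway genes in NOD.LCMV (vertical axis) and NOD.Ln82-LCMV (horizontal axis), 1 point per gene, coloured by list and filled where limma called it in NOD.LCMV. Furin, Myc and Il2ra lie highest at 1.24 to 1.67 and Bcl11b lowest at -0.71, while none was called in NOD.Ln82-LCMV.

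Between the strains with the control peptide 9 of the 62 were higher in NOD.LCMV and 1, Psenen, was lower, 16.1% called beside the 10.3% of all genes. The count of higher genes among the 62 moved between 6 and 12 when 1 array was left out. Of the 8 coactivators 4 were among them: Maml2 (0.43 ± 0.08), Maml3 (0.34 ± 0.07, not called after dropping control replicate 3 of NOD.LCMV), Crebbp (0.27 ± 0.05) and Ep300 (0.23 ± 0.05). Dtx3 was higher by 0.38 ± 0.05 and Bcl11b by 0.48 ± 0.10. With gp33 12 were higher and 13 lower in NOD.LCMV, 40.3% beside 27%. Maml2 was then higher by 0.69 ± 0.08 (limma adjusted p = 8.24e-06), Maml3 by 0.57 ± 0.07 (limma adjusted p = 1.91e-05), and Lfng, the Fringe gene that tunes NOTCH1 for DLL4, by 0.43 ± 0.09 (limma adjusted p = 0.00195). Dll4 (-0.69 ± 0.08, limma adjusted p = 1.38e-05), Hey2 (-0.50 ± 0.07) and Jag2 (-0.38 ± 0.06) were lower. The 10.3% and 27% of all genes count dim genes. With the dimmest genes left out, 2288 of the 13291 kept were called between strains with the control peptide and 5327 with gp33. These are larger shares, so no excess of calls among the 62 over brighter genes was shown in either strain comparison.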

How the data were processed

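Total RNA of 15 whole thymuses was hybridised to Gene 1.0 ST arrays for mouse, made by Affymetrix, 1 per mouse, per the labels. The authors deposited log2 values of 35556 probe sets, made with RMA in Affymetrix Expression Console 1.1, per the submitters' processing notes. The array's annotation build is not given in the sources used here. No further normalization was applied. Probe sets with 1 symbol (21789) gave 19938 genes, the brightest probe set standing for a gene. The fit, in limma 3.58.1 under R 4.3.3, gave each group its mean over all arrays and moderated the variances by empirical Bayes, with 11 residual degrees of freedom. Tests were two-sided with Benjamini-Hochberg adjustment over all genes. The difference between responses is NOD.LCMV minus NOD.Ln82-LCMV, as are strain differences. The fit was tested on simulated data. Single values were compared by exact permutation tests. The 9 genes and all lists were chosen with earlier results of these data known. Named were the 9 genes, called genes of the lists with the smallest adjusted p, and, for each of the 8 members called in any comparison, the 3 genes with the highest correlation. Some other list genes were named after their values were seen. Nothing in the labels says mice were pooled. Alternatives were another quantile normalization, median centring, a filter on dim genes, averaging or separating probe sets, array weights, a variance trend, a replicate block, fits of only the groups compared and leaving out each array. Repeating the list counts without each array was added after seeing the data. The labels do not say whether shared replicate numbers pair the mice, and the main fit did not pair them.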

Additional observations from a re-analysis of the deposited data

Results flagged for a closer look

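Hey1 was the 1 gene of the 9 whose response to gp33 differed between the strains in the test of that difference, by -1.03 log2 (limma adjusted p = 0.000819): it fell by 0.69 in NOD.LCMV, lower in 3 of 3 gp33 mice than in any control mouse, and its difference was 0.34 in NOD.Ln82-LCMV. No mouse stood apart from its group in the 18 groups of 4 or 5 values examined.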

How the results depend on the processing

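The fall of Hey1 and the rise of Hes1 after gp33 in NOD.LCMV, and the strain differences of Hey1, Dtx1, Notch1 and Notch2 with gp33, kept their direction and call under the 9 other settings and without any 1 array. Of the 9 genes, 3 were called for gp33 in NOD.LCMV, and 2 to 4 without 1 array. The difference between responses had 1 call, 2 with array weights (Dtx1 added) and 1 to 2 without 1 array. The strain difference with gp33 had 7, 4 with the replicate block (Rbpj, Nrarp and Ptcra lost) and 6 to 7 without 1 array. With the control peptide it had 1. It had 2 after another quantile normalization or without the dimmest genes, 3 with array weights, 0 with median centring, with only the groups compared or with the replicate block, and 0 to 2 without 1 array. The deviations of NOD.Ln82-LCMV mice that share a replicate number correlated at 0.117, 0.00848, -0.0495 and -0.226. The labels do not say whether these numbers pair the mice.

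Some small differences, none called, changed sign. For gp33 in NOD.Ln82-LCMV, array weights gave 0.00319 for Notch2, 0.115 for Notch3, 0.0255 for Dtx1, -0.0381 for Nrarp and 0.139 for Ptcra, the replicate block gave 0.035 for Notch3, 0.005 for Dtx1 and 0.0675 for Ptcra, and the mean over probe sets gave -0.0113 for Rbpj. Without 1 array Notch3 ran from -0.105 to 0.052, Dtx1 from -0.105 to 0.005, Nrarp from -0.0113 to 0.132 and Ptcra from -0.107 to 0.0675. Ptcra in NOD.LCMV ran from -0.36 to 0.0283, and its difference between responses from -0.325 to 0.0633, where Rbpj ran from -0.00433 to 0.0757. Between strains with the control peptide Hes1 was 0.0513 with array weights and -0.0925 to 0.0825 without 1 array, and Hey1 was -0.0525 with median centring and -0.0767 to 0.0875 without 1 array. The causes were not tested. Over all genes, array weights called 4350 between strains with the control peptide and 3175 for the difference between responses, against 2057 and 1740, and the replicate block 293 and 3128 between strains with the control peptide and with gp33, against 2057 and 5386.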
